A study of Mus musculus with 16 samples.

Results

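The 38 genes described here drive mitosis and chromosome segregation in mouse cells, and they were chosen by name: every row of the deposited expression table whose Ensembl gene ID maps to one of 38 symbols was taken, in all 8 expression columns. All 38 were found among the 24452 genes of the table. RNA had been sequenced from mouse embryonic stem cells of 2 lines, wild-type E14 (WT) and a second one that the labels give as a Suz12 knock-out of genotype Suz12-/- (Suz12-KO). The SUZ12 protein belongs to the core of Polycomb repressive complex 2, which methylates histone H3 over silent genes. Both lines were grown on gelatin in serum with the self-renewal factor LIF, sampled at 0 h, and then sampled after 24, 48 and 72 h in medium with 1 uM all-trans retinoic acid and no LIF, renewed daily. The labels give 16 samples, 2 biological replicates in each of the 8 groups of line and time. The labels used here do not say how the mutation was made or whether the Suz12-KO line is 1 clone. The deposited table holds 1 value per group in RPKM (reads per kilobase of gene, divided by the size of the library), so each value below is the authors' pooled value, and no spread between replicate cultures could be computed.

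Cell division is run by the kinase Cdk1 with its cyclins, which take a cell into mitosis. The spindle, built by kinases and motor proteins, then captures chromosomes at their kinetochores, and the spindle assembly checkpoint holds the cell until every kinetochore is attached. The anaphase-promoting complex (APC/C) then marks securin and the cyclins for destruction, separase opens cohesin, and the cell divides at the central spindle. Transcripts of many of these genes accumulate in G2 and M phase through a shared pair of promoter elements, the cell cycle homology region (CHR), bound by the MuvB complexes, and the CCAAT box, bound by NF-Y. Mouse embryonic stem cells cycle fast with a short G1 phase and slow down as they differentiate. In bulk RNA of this kind, fewer cells in mitosis and less RNA per cell cannot be told apart.

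The columns rest on 24731176 to 32153765 reads each, as inferred from the steps between RPKM values. A single annotated non-coding gene, Gm42418, took 56.5% to 65.5% of the reads. The share was highest at 0 h in each line, and its part in the RPKM of other genes was not tested. The median gene also stood lower at 0 h than later in RPKM as deposited, so changes are given on 2 scales. The first, called scaled, divides each column by a median-of-ratios factor that centres the genes, and the second leaves RPKM as deposited. Between the scales the median of the 10860 genes tested moved by 0.40, 0.47 and 0.42 on the log2 scale at 24, 48 and 72 h against 0 h, and by 0.16 for Suz12-KO against WT. The comparison of 72 h with 24 h, which was chosen after the data were seen, leaves out the 0 h columns and differed little between the scales. Suz12 RNA itself was at 2.94, 2.58, 1.26 and 0.995 RPKM in WT cells and at 2.59, 3.09, 2.38 and 1.35 RPKM in the columns labelled Suz12-KO, so its level over the whole gene does not check the knock-out label, and every direction drawn between the lines rests on that label. The cells did change type: all 10 pluripotent cell markers fell at 72 h against 0 h on both scales, and their summed level was 464 RPKM at 0 h against 11.6 RPKM at 72 h in WT cells, and 622 against 19.9 RPKM in the Suz12-KO line.

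RefSeq promoter windows were found for 31 of the 38 genes (GRCm38.p6, 250 bases before to 50 after the start of the gene). A CHR was searched for as TTTGAA or TTTAAA, and the CCAAT box as CCAAT, each on both strands (TTCAAA and ATTGG), and overlaps between the motifs were allowed. A CHR stood in the window of 26 of the 31 members, or 83.9%, against 27.8% of 27025 RefSeq promoters. In the 250 bases before the start alone it stood in 16 of 31 (51.6%) against 25.5%. CCAAT stood before the start in 23 of 31 (74.2%) against 34.5%, at least 2 copies in 15 of 31 (48.4%) against 10.5%, and both motifs in 14 of 31 (45.2%) against 9.0%. Over the whole window both stood in 22 of 31 (71.0%) against 10.9%. The 10 members with a CHR before the start and the highest mean RPKM are shown because each of these elements stood in the windows of most members. Each stretch runs 5′ to 3′ up to the base before the RefSeq start and covers the last 100 bases, or more where the farthest CHR lies beyond them, and capitals mark CHR and CCAAT matches.
Bub3 promoter, chr7:131560270-131560369, plus strand: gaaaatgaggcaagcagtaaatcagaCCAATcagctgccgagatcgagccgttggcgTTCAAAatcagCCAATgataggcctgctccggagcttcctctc
Ccnb2 promoter, chr9:70421555-70421726, minus strand: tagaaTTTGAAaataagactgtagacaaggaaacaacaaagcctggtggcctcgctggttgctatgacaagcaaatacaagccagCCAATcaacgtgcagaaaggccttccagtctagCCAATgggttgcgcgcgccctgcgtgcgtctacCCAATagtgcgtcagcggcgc
Cdk1 promoter, chr10:69352913-69353012, minus strand: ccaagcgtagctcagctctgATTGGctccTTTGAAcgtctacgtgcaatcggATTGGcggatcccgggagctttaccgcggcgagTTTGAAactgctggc
Cdc20 promoter, chr4:118437344-118437443, minus strand: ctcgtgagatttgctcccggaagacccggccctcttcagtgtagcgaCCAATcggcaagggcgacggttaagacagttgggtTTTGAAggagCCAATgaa
Ccnb1 promoter, chr13:100786487-100786586, minus strand: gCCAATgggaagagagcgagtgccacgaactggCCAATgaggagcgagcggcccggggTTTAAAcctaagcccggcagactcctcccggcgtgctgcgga
Plk1 promoter, chr7:122159335-122159434, plus strand: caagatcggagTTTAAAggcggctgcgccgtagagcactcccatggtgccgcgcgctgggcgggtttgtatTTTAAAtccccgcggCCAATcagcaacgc
Top2a promoter, chr11:99024190-99024373, minus strand: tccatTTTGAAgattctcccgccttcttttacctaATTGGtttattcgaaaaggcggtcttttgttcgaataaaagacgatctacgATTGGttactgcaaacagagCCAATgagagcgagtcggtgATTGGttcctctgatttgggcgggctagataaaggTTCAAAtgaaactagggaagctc
Ube2c promoter, chr2:164769829-164769928, plus strand: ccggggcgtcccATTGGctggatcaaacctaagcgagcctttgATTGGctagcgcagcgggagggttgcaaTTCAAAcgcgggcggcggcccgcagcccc
Cenpa promoter, chr5:30666786-30666885, plus strand: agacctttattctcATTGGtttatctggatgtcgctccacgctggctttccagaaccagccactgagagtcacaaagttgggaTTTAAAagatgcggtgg
Birc5 promoter, chr11:117849012-117849236, plus strand: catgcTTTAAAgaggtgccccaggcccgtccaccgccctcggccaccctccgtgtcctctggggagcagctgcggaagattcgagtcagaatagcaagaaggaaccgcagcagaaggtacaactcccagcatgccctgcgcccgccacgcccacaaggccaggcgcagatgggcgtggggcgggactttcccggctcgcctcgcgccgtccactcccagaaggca
In 8 of these 10, Bub3, Cdk1, Cdc20, Ccnb1, Plk1, Top2a, Ube2c and Cenpa, the nearest CHR begins 15 to 43 bases before the start. Top2a and Ube2c hold 6 CCAAT matches each in the 250 bases, whereas Birc5 holds none. Among the members tested below, the median change at 72 h was -0.68 for the 25 with a CHR anywhere in the window and -0.86 for the 5 without one. It was -0.65 for the 15 with a CHR before the start and -0.75 for the 15 without one there. These medians are descriptions with no test. A match is a run of letters only, and binding was not measured.

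The 38 genes spanned a wide range of levels. Bub3 had the highest mean over the 8 columns at 35.6 RPKM, followed by Ccnb2 at 31.7, Bub1b at 26.5, Cdk1 at 26.2 and Cdc20 at 25.9. Cenpf was lowest, at 0.549 RPKM, next to Cenpe at 0.875 RPKM. RPKM are per length, so these levels can be set beside each other, within the error of the authors' gene lengths. None was at 0 in any column, and every value rests on whole reads that could be recovered from the table. Cenpf never reached 1 RPKM and did not pass the filter for testing, so 37 of the 38 members were tested.

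**Figure D1:**
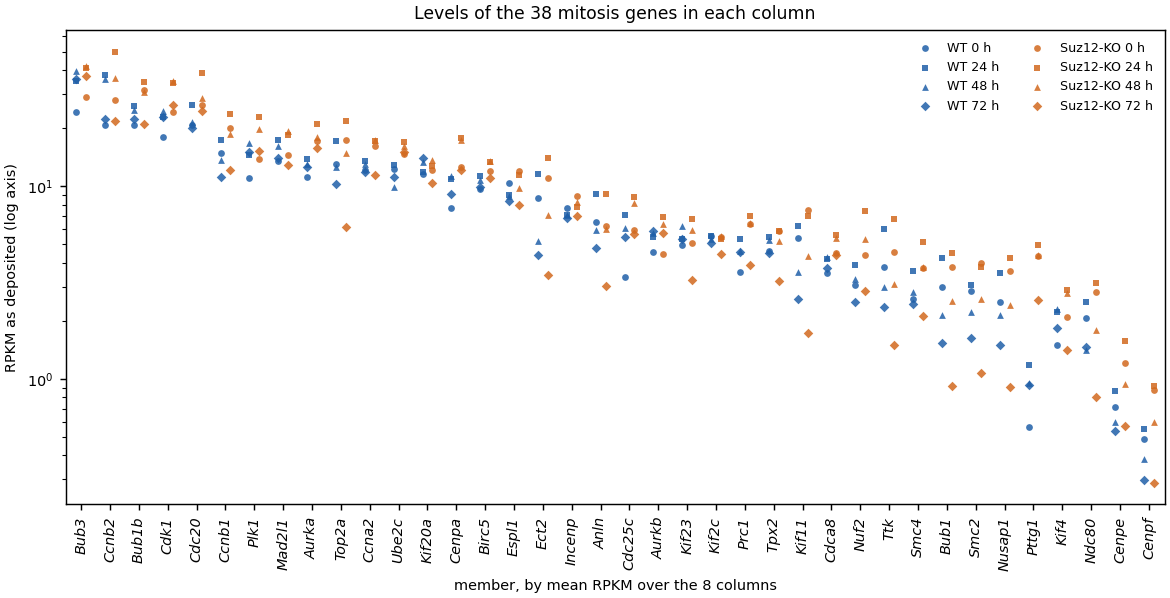
RPKM as deposited (log axis) of the 38 members, ordered by mean level, in each of the 8 columns: WT in blue, Suz12-KO in orange, and 1 marker shape per time. Bub3 stands highest at a mean of 35.6 RPKM and Cenpf lowest at 0.549 RPKM, and the spread between columns is widest for Pttg1 and for lower genes such as Bub1 and Nusap1.

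Over the time course the 38 genes as a group went down in both lines relative to other genes, with the largest changes in Kif11, Ect2, Bub1 and Smc2, and 11 members were lower at 72 h whichever scaling was used. On the scaled measure the median member changed from 0 h by -0.17, -0.44 and -0.61 at 24, 48 and 72 h in WT cells, and by -0.23, -0.48 and -0.94 in Suz12-KO cells. The median member at 72 h was therefore 0.653 times its 0 h value in WT cells and 0.523 times in Suz12-KO cells. As deposited, the median member was above 0 h at 24 h by 0.31 in WT and 0.28 in Suz12-KO cells, near it at 48 h (0.10 and 0.02), and at -0.05 and -0.55 at 72 h, while the median gene stood 0.50 and 0.32 above 0 h at 72 h. On that scale 26 members in WT and 27 in Suz12-KO cells had their highest value at 24 h, and after scaling 31 and 30 had it at 0 h. Whether the members rose or fell in the first 24 h therefore depends on the scale. Their place below the median gene at 72 h hardly can, since scaling divides every gene of a column by the same factor. Agreement of the scales on that place is therefore not a test.

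**Figure D2:**
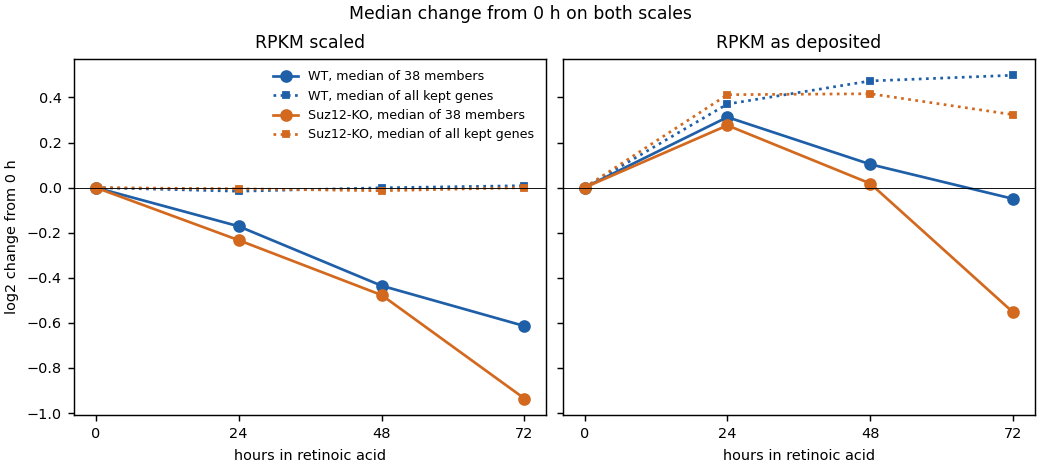
Median log2 change from 0 h, on log2(RPKM + 0.5), of the 38 members (solid lines, circles) and of the 10860 kept genes (dotted lines, squares) in WT (blue) and Suz12-KO (orange), on scaled RPKM (left) and RPKM as deposited (right). The members end at -0.61 and -0.94 when scaled and at -0.05 and -0.55 as deposited. They lie below the median gene on both scales, an agreement set by construction, since scaling shifts all genes of a column alike.

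**Figure D3:**
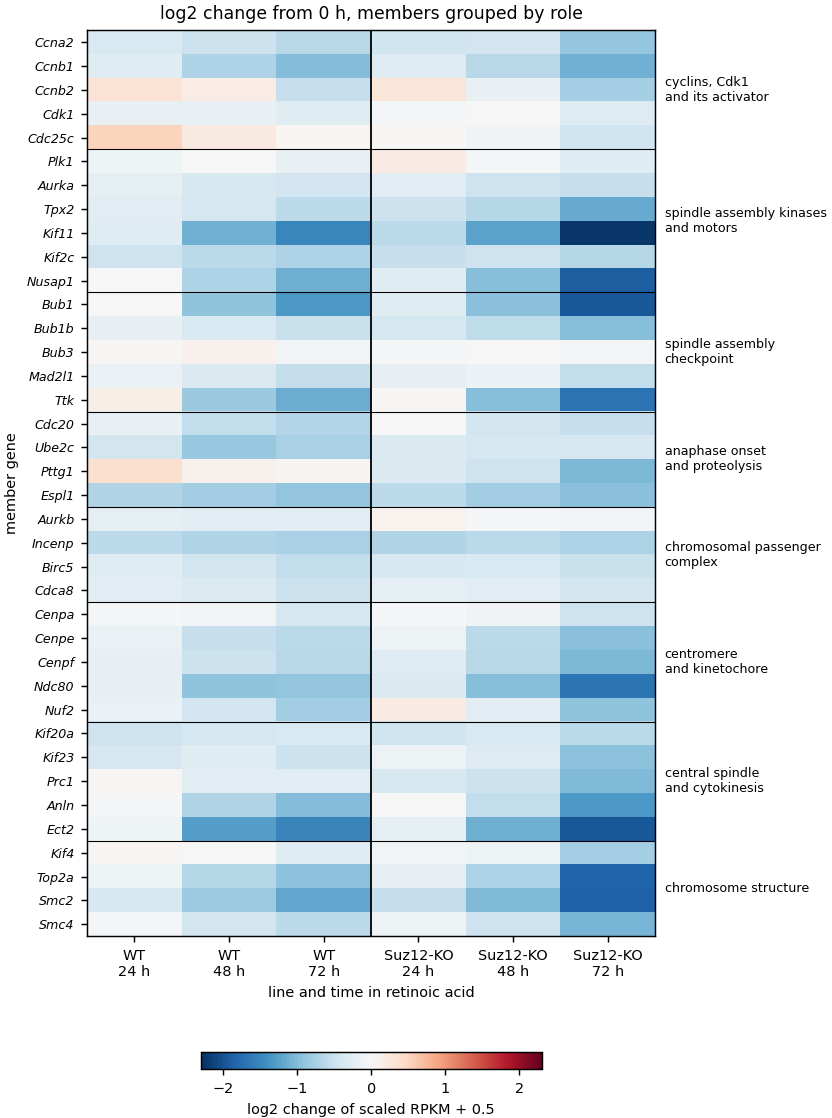
log2 change from 0 h of scaled RPKM + 0.5 for each member (lines of the map, grouped by role) at 24, 48 and 72 h in WT (left) and Suz12-KO (right), blue for lower and red for higher. The deepest blue is Kif11 at 72 h in Suz12-KO cells, at -2.23, and Bub3, Cdk1, Plk1 and Aurkb stay pale throughout.

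Each time was tested against 0 h over both lines with limma, a linear model with shared variance estimates, on log2(scaled RPKM + 0.5), at a Benjamini-Hochberg adjusted p under 0.05 over all 10860 genes. With 1 column per line and time, such a p measures how evenly a change was shared by the lines and not the spread between cultures. At 24 h 4 of 37 members were called lower and none higher, against 13.2% of all genes called lower: Incenp fell by 0.65 (SE 0.10, limma adjusted p = 0.0105), Espl1 by 0.65 (SE 0.10, limma adjusted p = 0.0103), Kif2c by 0.50 (SE 0.10, limma adjusted p = 0.0203) and Kif20a by 0.46 (SE 0.12, limma adjusted p = 0.0405). As deposited none of these held, Kif20a stood at 0.05, and 7 other members were called higher (Aurkb, Bub3, Ccnb2, Cdc20, Cdc25c, Cenpa and Plk1), where 37.2% of all genes were called higher. At 48 h 23 members were called lower against 23.8% of all genes, led by Ect2 (-1.20 (SE 0.15, limma adjusted p = 0.00221)) and Kif11 (-1.17 (SE 0.18, limma adjusted p = 0.00426)). As deposited 1 of the 23, Ect2, stayed lower at 48 h (-0.65, against 7.65% of all genes lower) and 7 members were called higher, where 46.9% of all genes were. At 72 h 31 of 37 members were called lower and none higher, against 29.1% of all genes called lower, with a median of -0.72 against 0.00 over all genes. As deposited 11 of these 31 stayed lower, against 12.2% of all genes, and Bub3 was called higher at 0.47, where 46% of all genes were called higher. The same 11 were lower under all 5 ways of scaling tried, one of which also kept fewer genes for the test: Anln, Bub1, Ccnb1, Ect2, Espl1, Kif11, Ndc80, Nusap1, Smc2, Top2a and Ttk. The share of all genes lower under all 5 was not counted, and it cannot exceed the 12.2% called lower as deposited.

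From 24 h to 72 h, 22 of 37 members were called lower on scaled RPKM, against 18.4% of all genes, with a median of -0.48. As deposited 15 were called lower, against 16.2% of all genes, with the same median of -0.48, and no member was called higher on either scale. Under all 5 scalings 14 members were lower: Anln, Bub1, Ccnb1, Ccnb2, Cdc20, Ect2, Kif11, Ndc80, Nuf2, Nusap1, Smc2, Smc4, Top2a and Ttk. The share of all genes lower under all 5 was not counted, and it cannot exceed the 16.2% called lower as deposited. The member counts from 24 h to 72 h moved less with the scaling than those against 0 h. Of 10 smooth muscle and fibroblast markers 8 passed the filter, and all 8 rose over the same hours. Of 12 endoderm markers 11 passed and 7 rose, where 22.1% of all genes were called higher. Markers such as Myl9, below 1 RPKM at 0 h and 24 h in both lines, passed only through their later values. These counts are therefore partly set by the filter. The summed level of the first list was 10.9 RPKM at 24 h and 397 RPKM at 72 h in WT cells, against 42.9 and 505 RPKM in the Suz12-KO line. That of the endoderm list was 4.27 and 24.1 RPKM in WT cells, against 20.7 and 162 RPKM in the Suz12-KO line. At 24 h Col3a1 and Afp were listed at 0 in WT cells and Ttr in Suz12-KO cells. The part of these changes in cell type in the members' fall was not tested.

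The cyclins, Cdk1 and its activator phosphatase Cdc25c split between members that fell and members that held. Values of each gene are RPKM as deposited, in the order 0, 24, 48 and 72 h. Cyclin B1 (Ccnb1, ENSMUSG00000041431, chr13:100778650-100786570), the main mitotic partner of Cdk1, was at 14.9, 17.5, 13.6 and 11.2 RPKM in WT cells and 19.99, 23.7, 18.6 and 12.1 RPKM in Suz12-KO cells. It was highest at 24 h and lowest at 72 h in both lines, and it fell by 1.06 (SE 0.10, limma adjusted p = 0.000594) at 72 h against 0 h on scaled RPKM and by 0.54 (limma adjusted p = 0.0133) as deposited. Cyclin B2 (Ccnb2), a second B-type cyclin, was at 20.9, 37.7, 36.2 and 22.3 RPKM in WT cells and 28.1, 49.9, 36.5 and 21.7 RPKM in Suz12-KO cells. It stood highest at 24 h in both lines and fell by 0.96 (SE 0.13, limma adjusted p = 0.00373) from 24 h to 72 h. Cyclin A2 (Ccna2), which acts in S phase and G2, was at 12.1, 13.6, 13.03 and 11.8 RPKM in WT cells and 16.2, 17.1, 17.3 and 11.5 RPKM in Suz12-KO cells and fell by 0.77 (SE 0.12, limma adjusted p = 0.00245) at 72 h, a call that was lost as deposited. Cdk1, the kinase itself, was at 18.1, 23.02, 24.5 and 23.02 RPKM in WT cells and 24.2, 34.4, 35.3 and 26.5 RPKM in Suz12-KO cells, and its change at 72 h did not pass the test (-0.29 (SE 0.11, limma adjusted p = 0.063)). Cdc25c, which removes inhibitory phosphates from Cdk1, was at 3.37, 7.095, 6.06 and 5.42 RPKM in WT cells and 5.91, 8.84, 8.14 and 5.65 RPKM in Suz12-KO cells. Its change at 72 h was -0.20 (SE 0.15, limma adjusted p = 0.281), and from 24 h to 72 h it fell by 0.48 (SE 0.15, limma adjusted p = 0.0465) on scaled RPKM. As deposited the change was of the same size (-0.48) and missed the threshold (limma adjusted p = 0.0697). In all, 3 of 5 in this group, Ccnb1, Ccnb2 and Ccna2, were called lower at 72 h when scaled, with a median of -0.65. As deposited 1 of these, Ccnb1, kept its call at 72 h, and Ccnb2 stood at -0.14, not called.

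**Figure D4:**
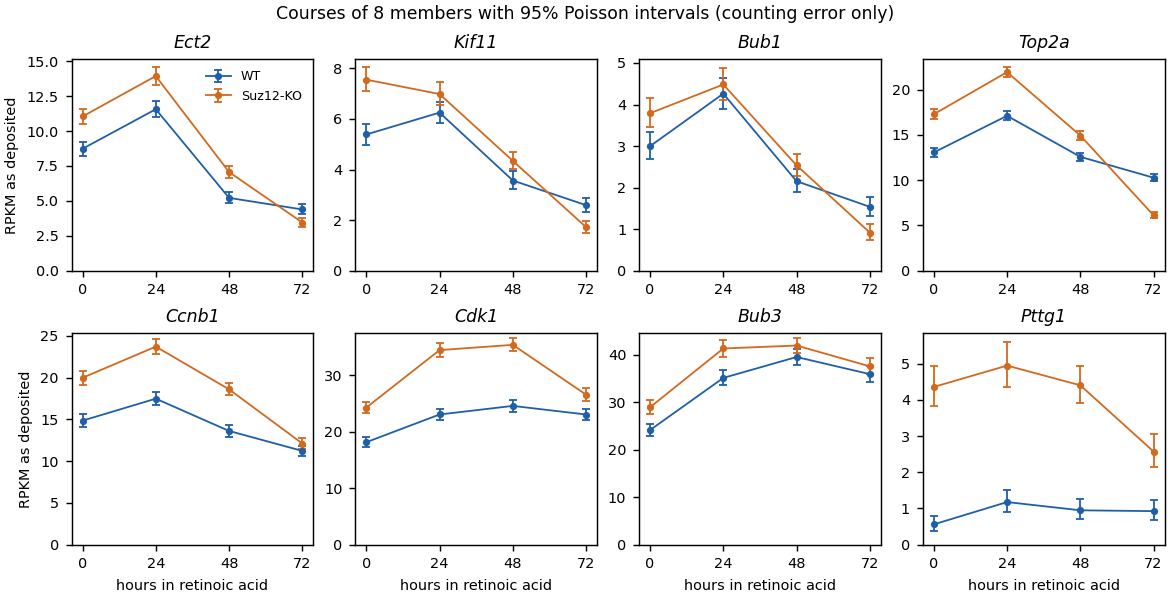
RPKM as deposited against hours in retinoic acid for 8 members, with WT in blue and Suz12-KO in orange. Bars are exact 95% Poisson intervals and cover counting error only. Ect2, Kif11, Bub1, Top2a and Ccnb1 drop after 24 h in both lines and the Suz12-KO line crosses below WT at 72 h for the first 4, whereas Cdk1 and Bub3 end above 0 h and Pttg1 differs between the lines throughout.

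Among the kinases and motors that build the spindle, the kinesin Kif11 changed most of all 38 members. Kif11 (ENSMUSG00000012443, chr19:37376403-37421859), the plus-end motor that pushes the spindle poles apart, was at 5.38, 6.25, 3.57 and 2.59 RPKM in WT cells and 7.55, 6.98, 4.34 and 1.72 RPKM in Suz12-KO cells. Both lines lost most of it between 24 h and 72 h, with no overlap of the 48 h and 72 h values with the earlier ones, and it fell by 1.87 (SE 0.18, limma adjusted p = 0.000584) at 72 h against 0 h when scaled and by 1.39 (limma adjusted p = 0.00239) as deposited. Nusap1, a microtubule-binding protein of the spindle, was at 2.4995, 3.54, 2.15 and 1.501 RPKM in WT cells and 3.62, 4.24, 2.41 and 0.906 RPKM in Suz12-KO cells, and fell by 1.504 (SE 0.19, limma adjusted p = 0.00127). Its exons overlap those of Oip5 on the opposite strand, and the sources used here do not say whether reads were counted by strand. Tpx2, which activates Aurora A at the spindle, was at 4.595, 5.46, 5.23 and 4.49 RPKM in WT cells and 5.86, 5.86, 5.19 and 3.21 RPKM in Suz12-KO cells and fell by 0.88 (SE 0.15, limma adjusted p = 0.00335). Kif2c, a kinesin that takes microtubules apart at kinetochores, was at 5.55, 5.54, 5.31 and 5.06 RPKM in WT cells and 5.45, 5.33, 5.53 and 4.44 RPKM in Suz12-KO cells, a narrow range, and fell by 0.68 (SE 0.10, limma adjusted p = 0.00232). Aurora A kinase (Aurka) was at 11.2, 13.8, 13.04 and 12.6 RPKM in WT cells and 17.2, 20.9, 17.9 and 15.8 RPKM in Suz12-KO cells and fell by 0.49 (SE 0.10, limma adjusted p = 0.00711) when scaled, but stood at 0.02 as deposited. Suz12-KO values of Aurka were above the WT value at each time. Polo-like kinase 1 (Plk1), which acts at centrosomes and kinetochores, lay between 11.0 and 16.8 RPKM in WT cells, between 13.8 and 22.9 RPKM in the Suz12-KO line, and was not called at 72 h (-0.23 (SE 0.13, limma adjusted p = 0.175)). Of the 6 genes 5 were called lower at 72 h, and only Kif11 and Nusap1 of these on both scales.

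The spindle assembly checkpoint held the third largest fall at 72 h of the 37 tested members, Bub1, and the smallest change, Bub3. Bub1 (ENSMUSG00000027379, chr2:127801122-127831865), the checkpoint kinase of the kinetochore, was at 2.997, 4.26, 2.15 and 1.54 RPKM in WT cells and 3.79, 4.48, 2.54 and 0.918 RPKM in Suz12-KO cells. It was highest at 24 h and lowest at 72 h in both lines, and fell by 1.63 (SE 0.17, limma adjusted p = 0.000711) at 72 h when scaled and by 1.19 (limma adjusted p = 0.00349) as deposited. Ttk (Mps1), the kinase that starts checkpoint signalling, was at 3.79, 6.01, 2.99 and 2.36 RPKM in WT cells and 4.56, 6.75, 3.095 and 1.498 RPKM in Suz12-KO cells, and fell by 1.503 (SE 0.15, limma adjusted p = 0.00178) from 24 h to 72 h. Bub1b (BubR1), a component of the inhibitor of the APC/C, was at 20.8, 25.96, 24.8 and 22.3 RPKM in WT cells and 31.6, 34.6, 30.7 and 21.2 RPKM in Suz12-KO cells and fell by 0.75 (SE 0.14, limma adjusted p = 0.00486) at 72 h. Mad2l1 (Mad2), another component of that inhibitor, was at 13.5, 17.3, 16.2 and 14.1 RPKM in WT cells and 14.5, 18.4, 19.3 and 12.9 RPKM in Suz12-KO cells and fell by 0.56 (SE 0.11, limma adjusted p = 0.00658). Both of these calls were lost as deposited. Bub3 (ENSMUSG00000066979, chr7:131560222-131571895), which brings Bub1 and BubR1 to kinetochores, was at 24.2, 35.1, 39.5 and 35.9 RPKM in WT cells and 28.96, 41.3, 41.97 and 37.6 RPKM in Suz12-KO cells. Its scaled change at 72 h was -0.05 (SE 0.10, limma adjusted p = 0.683), it was lowest at 0 h in both lines as deposited, and on that scale it rose by 0.47 (limma adjusted p = 0.0169). Of the 5 genes, 4 were called lower at 72 h on scaled RPKM and 2, Bub1 and Ttk, as deposited.

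The 4 genes of anaphase onset had a median change of -0.58 at 72 h, and 3 of them were called lower when scaled and 1, Espl1, as deposited. Separase (Espl1), the protease that cuts cohesin, was at 10.4, 9.05, 8.92 and 8.38 RPKM in WT cells and 12.03, 11.4, 9.82 and 8.03 RPKM in Suz12-KO cells. The 0 h value was highest in both lines and the 72 h value lowest, and it fell by 0.93 (SE 0.10, limma adjusted p = 0.00074) when scaled and by 0.43 (limma adjusted p = 0.0302) as deposited. Cdc20, the activator of the APC/C that the checkpoint blocks, was at 20.9, 26.4, 21.6 and 19.95 RPKM in WT cells and 26.4, 38.9, 28.6 and 24.5 RPKM in Suz12-KO cells, and fell by 0.52 (SE 0.11, limma adjusted p = 0.013) from 24 h to 72 h and by 0.52 (limma adjusted p = 0.0203) as deposited. Ube2c, the ubiquitin-conjugating enzyme of the APC/C, was at 12.2, 12.9, 9.95 and 11.1 RPKM in WT cells and 14.7, 16.9, 16.1 and 15.1 RPKM in Suz12-KO cells and fell by 0.56 (SE 0.15, limma adjusted p = 0.0185) at 72 h on scaled RPKM but stood at -0.05, not called, as deposited. Its exons overlap Tnnc2, and those of Cdc20 overlap Elovl1, on the opposite strand. Securin (Pttg1, ENSMUSG00000020415, chr11:43420250-43426251), the inhibitor of separase, was at 0.561, 1.18, 0.9502 and 0.927 RPKM in WT cells and 4.36, 4.94, 4.401 and 2.57 RPKM in Suz12-KO cells. The lines did not overlap: its lowest Suz12-KO value was above its highest WT value. At 72 h against 0 h it was not called (-0.49 (SE 0.25, limma adjusted p = 0.135)), with a change of 0.06 in WT cells against -1.04 in the Suz12-KO line.

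The chromosomal passenger complex corrects faulty attachments and then moves to the central spindle, and its 4 genes had the smallest median change of the 8 groups from 24 h to 72 h, -0.16. Incenp, its scaffold, was at 7.69, 7.11, 7.06 and 6.88 RPKM in WT cells and 8.94, 7.798, 8.25 and 6.98 RPKM in Suz12-KO cells, and fell by 0.74 (SE 0.10, limma adjusted p = 0.00164) at 72 h, against 0.65 by 24 h. Survivin (Birc5) was at 9.63, 11.3, 10.8 and 9.898 RPKM in WT cells and 11.97, 13.4, 13.5 and 11.1 RPKM in Suz12-KO cells and fell by 0.54 (SE 0.10, limma adjusted p = 0.00558). Borealin (Cdca8) was at 3.56, 4.19, 4.296 and 3.77 RPKM in WT cells and 4.49, 5.59, 5.39 and 4.37 RPKM in Suz12-KO cells and fell by 0.46 (SE 0.09, limma adjusted p = 0.0077) when scaled, while it stood at 0.02 as deposited. Aurora B kinase (Aurkb), the catalytic subunit, lay between 4.53 and 5.84 RPKM in WT cells, between 4.44 and 6.93 RPKM in the Suz12-KO line, and was not called (-0.15 (SE 0.11, limma adjusted p = 0.299)). None of the 4 was called from 24 h to 72 h, with changes of -0.22 to -0.08, and none held its 72 h call as deposited.

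The 4 tested centromere and kinetochore genes were all called lower at 72 h and from 24 h to 72 h on scaled RPKM, and 2 of them belong to the Ndc80 complex, the main microtubule coupler of the kinetochore. Ndc80 was at 2.06, 2.51, 1.41 and 1.46 RPKM in WT cells and 2.82, 3.13, 1.79 and 0.809 RPKM in Suz12-KO cells and fell by 1.29 (SE 0.20, limma adjusted p = 0.0029) at 72 h. Nuf2, its dimer partner, was at 3.06, 3.91, 3.31 and 2.501 RPKM in WT cells and 4.42, 7.47, 5.33 and 2.85 RPKM in Suz12-KO cells and fell by 0.89 (SE 0.14, limma adjusted p = 0.00593) from 24 h to 72 h. The Suz12-KO values of Nuf2 were above the WT value at each time, and its highest was at 24 h. Cenpe, the kinesin that carries chromosomes to the metaphase plate, was at 0.714, 0.863, 0.595 and 0.533 RPKM in WT cells and 1.21, 1.57, 0.939 and 0.572 RPKM in Suz12-KO cells and fell by 0.79 (SE 0.15, limma adjusted p = 0.0064) at 72 h. Cenpe passed the filter of 1 RPKM only through its Suz12-KO values at 0 h and 24 h. Its calls at 72 h against those times are therefore not independent of the filter. Cenpa, the histone H3 variant that marks centromeres, was at 7.74, 10.9, 11.3 and 9.07 RPKM in WT cells and 12.6, 17.7, 17.4 and 12.1 RPKM in Suz12-KO cells and fell by 0.43 (SE 0.10, limma adjusted p = 0.0109) when scaled but stood at 0.08 as deposited. From 24 h to 72 h Cenpa fell by 0.39 (SE 0.10, limma adjusted p = 0.0237), and as deposited a change of the same size (-0.39) missed the threshold. On that scale 1 of the 4, Ndc80, was called lower at 72 h. From 24 h to 72 h 3 of them were called lower as deposited, Cenpe, Ndc80 and Nuf2. Cenpf, a large kinetochore protein that was not tested, stood at 0.488 RPKM at 0 h and 0.2999 RPKM at 72 h in WT cells, against 0.871 and 0.289 RPKM in the Suz12-KO line.

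The genes of the central spindle and cytokinesis fell at 72 h by 0.49 to 1.73 on the log2 scale, all 5 of them called when scaled. Ect2 (ENSMUSG00000027699, chr3:27097222-27153878), the exchange factor that activates RhoA for the contractile ring, was at 8.73, 11.6, 5.22 and 4.39 RPKM in WT cells and 11.04, 13.9, 7.07 and 3.45 RPKM in Suz12-KO cells. Its 48 h and 72 h values lay below both earlier values in each line, and it fell by 1.73 (SE 0.15, limma adjusted p = 0.000441) at 72 h when scaled and by 1.23 (limma adjusted p = 0.0021) as deposited. Anillin (Anln), a scaffold of the ring, was at 6.49, 9.12, 5.91 and 4.77 RPKM in WT cells and 6.23, 9.16, 5.99 and 3.04 RPKM in Suz12-KO cells and fell by 1.16 (SE 0.14, limma adjusted p = 0.00102). Kif23 (MKLP1), a motor of the centralspindlin complex, was at 4.98, 5.32, 6.19 and 5.32 RPKM in WT cells and 5.06, 6.73, 5.92 and 3.27 RPKM in Suz12-KO cells and fell by 0.72 (SE 0.17, limma adjusted p = 0.014). Its Suz12-KO value at 72 h was the lowest of its 8. Prc1, which bundles the microtubules of the central spindle, was at 3.61, 5.31, 4.61 and 4.58 RPKM in WT cells and 6.33, 6.998, 6.41 and 3.91 RPKM in Suz12-KO cells and fell by 0.64 (SE 0.18, limma adjusted p = 0.0256). Kif20a (MKLP2), a kinesin that brings the passenger complex to the central spindle, was at 11.6, 11.8, 13.3 and 14.004 RPKM in WT cells and 12.1, 12.8, 13.8 and 10.4 RPKM in Suz12-KO cells. In WT cells its deposited value was highest at 72 h and in Suz12-KO cells lowest at that time, and it fell by 0.49 (SE 0.12, limma adjusted p = 0.0155) when scaled but stood at 0.02, just above its 0 h value, as deposited. Kif20a shares exon positions with Cdc23, and Prc1 with Rccd1, on the opposite strand. Ect2 and Anln were called lower on both scales.

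Chromosome structure genes had the largest median change at 72 h of the 8 groups, -1.11. Top2a (ENSMUSG00000020914, chr11:98992943-99024189), the topoisomerase that untangles sister chromatids, was at 13.1, 17.1, 12.6 and 10.3 RPKM in WT cells and 17.3, 21.9, 14.9 and 6.12 RPKM in Suz12-KO cells. It was highest at 24 h, and its 72 h value in the Suz12-KO line was less than the lowest WT value. Top2a fell by 1.39 (SE 0.23, limma adjusted p = 0.00341) at 72 h when scaled and by 0.88 (limma adjusted p = 0.0321) as deposited. The condensin ATPase Smc2 was at 2.86, 3.06, 2.21 and 1.63 RPKM in WT cells and 3.99, 3.804, 2.58 and 1.08 RPKM in Suz12-KO cells and fell by 1.53 (SE 0.17, limma adjusted p = 0.000864). Its partner Smc4 was at 2.59, 3.64, 2.83 and 2.46 RPKM in WT cells and 3.76, 5.11, 3.79 and 2.13 RPKM in Suz12-KO cells and fell by 0.78 (SE 0.14, limma adjusted p = 0.00898) from 24 h to 72 h. The chromokinesin Kif4 was at 1.496, 2.23, 2.295 and 1.83 RPKM in WT cells and 2.0998, 2.89, 2.78 and 1.41 RPKM in Suz12-KO cells and fell by 0.53 (SE 0.15, limma adjusted p = 0.0231) at 72 h on scaled RPKM but stood at -0.11, not called, as deposited. All 4 were called lower at 72 h and from 24 h to 72 h when scaled. As deposited 2, Top2a and Smc2, kept the call at 72 h, and 3, these and Smc4, the call from 24 h to 72 h. As deposited all 4 were higher in Suz12-KO than in WT cells at 0, 24 and 48 h, as were 35, 37 and 36 of the 38 members. On that scale the median of all genes was also higher in Suz12-KO cells, by 0.17, 0.25 and 0.15. When scaled, 30, 25 and 27 of the 38 members were higher. The share of all genes that were higher was not counted.

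The comparison of Suz12-KO with WT averaged over the 4 times asked whether loss of the Polycomb subunit went with other levels of these genes, and on scaled RPKM 2 of 37 members were called higher and none lower, against 3.34% of all genes called higher. Pttg1 was higher in Suz12-KO cells by 1.55 (SE 0.17, limma adjusted p = 0.0104), and at each of the 4 times, by 2.14, 1.45, 1.57 and 1.05 in order of time. Its 95% Poisson intervals at 0 h were 0.376 to 0.806 RPKM in WT and 3.82 to 4.95 RPKM in Suz12-KO cells. Cenpa was higher by 0.40 (SE 0.07, limma adjusted p = 0.0311), with single differences of 0.43, 0.41, 0.42 and 0.35. Both calls were lost when the 24 h or the 48 h columns were left out, and Cenpa also without 0 h or 72 h, at about the same size. With no filter on low values both missed the threshold at that size, with limma adjusted p of 0.0557 for Pttg1 and 0.0576 for Cenpa. As deposited 7 members were called higher, against 10.5% of all genes: Aurka, Cdc20, Cdk1, Cenpa, Nuf2, Pttg1 and Ube2c. The median of the 37 tested members differed by 0.01 when scaled and by 0.17 as deposited. At single times, with no test, the median differences in order of time were 0.15, 0.05, 0.10 and -0.10, with 30, 25, 27 and 13 of 38 members higher in Suz12-KO cells. At 0 h 1 member, Pttg1, was at least 1.5-fold higher, against 7.96% of all genes. At 72 h 4 members were at least 1.5-fold lower in Suz12-KO cells, against 6.96% of all genes, with Top2a lowest at -0.75.

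The change at 72 h was more negative in Suz12-KO cells in 30 of 38 members on scaled RPKM and in 37 of 38 as deposited, but a difference in response was not called for any member. At least 1.5-fold lower at 72 h than at 0 h were 21 of 38 members in WT cells, against 22.7% of all genes, and 26 of 38 in Suz12-KO cells, against 25.2%. On scaled RPKM the change in Suz12-KO minus that in WT had a median of -0.29 over the members and 0.02 over all genes. Of all genes 5212 of 10860 had the more negative change in Suz12-KO cells on that scale. As deposited the median gene also had the smaller change in Suz12-KO cells, 0.32 against 0.50 in WT cells. The share of all genes to set beside the 37 of 38 was not counted. The scaled gap between the lines opened late: from 24 h to 48 h the median member changed by -0.23 in WT and -0.19 in Suz12-KO cells, and from 48 h to 72 h by -0.17 and -0.45. The widest gaps were those of Pttg1 (0.06 in WT and -1.04 in Suz12-KO cells), Top2a (-0.94 and -1.83), Nusap1 (-1.12 and -1.89) and Ndc80 (-0.90 and -1.67). In a limma fit of a straight slope over hours in each line, no gene of 10860, and so 0% of all genes, had slopes that differed between the lines at an adjusted p under 0.05. At an unadjusted p under 0.05 there were 669 genes, among them 2 members, Pttg1 and Prc1. The smallest adjusted p of a member was 0.644, for Pttg1, with a slope difference of -0.32 per 24 h, and 28 of 37 members had the lower slope in Suz12-KO cells. The slope fit assumes a straight course, which the members that fell only after 24 h did not follow.

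**Figure D5:**
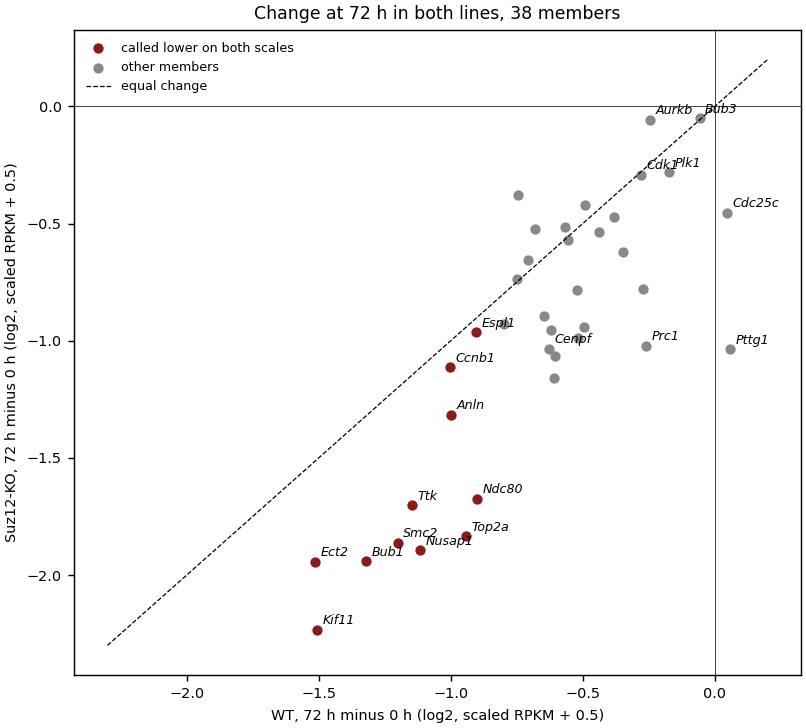
log2 change of scaled RPKM + 0.5 from 0 h to 72 h in WT (x axis) and Suz12-KO (y axis) for the 38 members. The dashed line marks equal change, and red points are the 11 members called lower over both lines on both scales. Of the 38 points 30 lie below the dashed line, with Kif11 lowest at -1.51 and -2.23, and Pttg1 and Cdc25c are the points right of 0 on the x axis.

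The authors' deposited table marks genes that differ between 72 h and 0 h in each line, without a direction, and the sources used here do not give its threshold. For the WT line the authors' deposited table marks 6 members, Bub1, Cenpf, Ect2, Kif11, Ndc80 and Smc2, and all 6 were lower at 72 h, where 12.2% of the 10860 kept genes are marked and lower. For the Suz12-KO line the authors' deposited table marks 15 members, Anln, Bub1, Cenpe, Cenpf, Ect2, Kif11, Ndc80, Nuf2, Nusap1, Pttg1, Smc2, Smc4, Top2a, Tpx2 and Ttk, all lower at 72 h, where 14.2% of kept genes are marked and lower. The 6 marked in WT cells are among the 15. Cenpf, marked in both lines, did not pass the filter and is outside the kept genes behind these shares. The marks come from the authors' own test, and whether the lines differ is not part of them.

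Other genes of the division machinery were counted from lists drawn up beside the 38. Of 84 other mitosis genes tested, 53 were called lower and 4 higher at 72 h against 0 h on scaled RPKM, with a median of -0.60, where 29.1% of all genes were called lower and 29.5% higher. Esco2, which acetylates cohesin, fell by 2.34 (SE 0.15, limma adjusted p = 0.000195), Sgo2a (shugoshin 2), which protects centromeric cohesin, by 1.64 (SE 0.16, limma adjusted p = 0.000549), and Fbxo5 (Emi1), an inhibitor of the APC/C, by 1.54 (SE 0.13, limma adjusted p = 0.000367). Esco2 and Sgo2a reached 1 RPKM only at 0 h and 24 h, in both lines. Their calls at 72 h are therefore not independent of the filter. As deposited 24 of the 84 were lower and 15 higher, and from 24 h to 72 h 43 were lower and 3 higher when scaled. Cohesin and its loaders had 7 of 10 genes lower at 72 h, among them the cohesin release factor Wapl, which fell by 1.92 (SE 0.15, limma adjusted p = 0.000288), and the cohesin subunit Smc3, which fell by 1.48 (SE 0.21, limma adjusted p = 0.00192). As deposited 2 of the 10, Wapl and Smc3, were lower and 1 higher. The median of the 10 was then -0.35 against -0.78 when scaled. Of 16 APC/C genes, 4 were lower and 5 higher, with a median of 0.06, and as deposited none was lower and 10 were higher.

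The regulators of these genes moved in part. Of 14 tested G2/M regulators 7 were lower and 1 higher at 72 h when scaled. As deposited 1 was lower and 4 were higher, so the balance of calls turns with the scale. Mybl2 (B-Myb), which joins MuvB at CHR promoters, fell by 3.19 (SE 0.21, limma adjusted p = 0.0002), the MuvB subunit Lin9 by 0.85 (SE 0.14, limma adjusted p = 0.00306) and E2f4 by 0.88 (SE 0.12, limma adjusted p = 0.00183) when scaled. As deposited Mybl2 kept its call at -2.68. Lin9 stood at -0.47 (limma adjusted p = 0.0524) and E2f4 at -0.36 (limma adjusted p = 0.0966), both short of the threshold. Of 41 DNA replication genes, 34 were lower at 72 h and none higher, with a median of -0.87, among them the origin subunit Orc1, which fell by 1.81 (SE 0.10, limma adjusted p = 0.000142). As deposited 17 were lower and 1 higher, and from 24 h to 72 h 27 were lower when scaled and 24 as deposited. Among G1 cyclins and inhibitors of cyclin-dependent kinases, 6 of 14 rose and 3 fell at 72 h when scaled, against 29.5% of all genes higher and 29.1% lower. As deposited 8 rose and 1 fell, against 46% and 12.2%. The inhibitors Cdkn2b, Cdkn1c and Cdkn1a rose by 3.41 (SE 0.22, limma adjusted p = 0.000191), 2.91 (SE 0.38, limma adjusted p = 0.00152) and 2.89 (SE 0.39, limma adjusted p = 0.00164). Cdkn2b reached 1 RPKM only at 48 h and 72 h, in both lines, so its call is not independent of the filter. Of 18 housekeeping genes, 8 were lower and 4 higher at 72 h when scaled, and 2 lower and 9 higher as deposited.

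Length and level moved with the members' changes. Longer members had more negative changes from 0 h to 72 h. Across the 38 genes Spearman's rho between the gene length behind the RPKM and the change was -0.45 in WT and -0.50 in Suz12-KO cells. Across 9557 protein-coding genes, with the annotated exon length in its place, rho was 0.04 and 0.01. These lengths are equal for some members, such as Ccnb1 (4217 bases), and differ for others, such as Bub3 (2055 behind the RPKM, 7006 annotated). The rho of members and of protein-coding genes for length therefore rest on unlike measures. Members with a higher mean RPKM had less negative changes, with rho of 0.40 and 0.61, against -0.13 and -0.11 across protein-coding genes. These are descriptions across genes, which share libraries and are not independent replicates, and the part of length or level in the falls was not tested. Exons of 11 members overlap another annotated gene, 9 of them a gene that is itself in the table, and the pseudogenes Ccnb1-ps, Ccnb2-ps and Kif4-ps stood at 0 to 0.184 RPKM in every column.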

How the data were processed

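RNA of 16 samples (2 lines, 4 times, 2 replicates each) was rRNA-depleted and sequenced, per the labels' protocols. Tools named in the submitters' processing notes are TopHat, featureCounts and DESeq2 (no versions), with GRCm38. The authors deposited RPKM (reads scaled to gene length and library size), 1 value per group, for 24452 Ensembl genes, with TRUE or FALSE marks for 72 h against 0 h. How replicates were joined is not stated in the labels.

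Gene IDs were matched to GENCODE M21 (GRCm38), which left 595 genes without a symbol. RPKM were divided by median-of-ratios factors, log2(value + 0.5) was taken, and genes with at least 1 RPKM in any column were kept (10860). limma 3.58.1 (R 4.3.3, trended empirical Bayes) fitted line and time (3 residual degrees of freedom) or line by hours (4), with Benjamini-Hochberg adjustment at 0.05, and both fits were tested on simulated data. The planned fit to 16 libraries was replaced by this fit to 8 columns. The p-values measure spread between columns, not between cultures. Column totals were inferred from the steps between RPKM values, as were gene lengths where the annotated exon length gave no whole reads. Whole reads were recovered within 0.01 reads for all 273 listed genes. The reads served for exact 95% Poisson intervals, which cover counting error only, and the lengths also for the members' rank correlations with length. Tables and figures used Python 3.11.15, pandas 2.3.3, SciPy 1.17.1 and matplotlib 3.10.9.

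The members and gene lists were chosen with earlier results of these data known. Values in every column are given for members called in any fit and, in each role, for the member with the highest mean RPKM and that with the largest change at 72 h, and up to 3 called genes with the largest change from each other list. The alternatives were RPKM as deposited, other factors, pseudocounts of 0.1 and 1, other filters, no intensity trend and leaving out a time.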

Additional observations from a re-analysis of the deposited data

Results flagged for a closer look

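The direction of change from 0 h to 72 h was opposite in the 2 lines for 2 members on scaled RPKM. As deposited it was opposite for 14 members, these 2 among them, and 13 of the 14 were higher in WT and lower in Suz12-KO cells. On that scale the median gene also stood further above 0 h in WT cells (0.50) than in Suz12-KO cells (0.32). Pttg1 (securin) changed by 0.06 in WT and by -1.04 in Suz12-KO cells, a difference of -1.09 on log2(scaled RPKM + 0.5). Cdc25c changed by 0.05 and -0.45, a difference of -0.50. With 1 column per group these single differences were not tested, and both WT changes lie close to 0. In the limma fit of slopes over time neither member passed, with adjusted p of 0.644 for Pttg1 and 0.999 for Cdc25c. Cdc25c exons overlap those of Gm3550 on the opposite strand.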

How the results depend on the processing

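No paired analysis was possible because the columns carry no replicate numbers, and leaving out single replicates was not run, since each column stands for a whole group. The scale mattered most. As deposited, the members called numbered 7 for Suz12-KO minus WT, all higher (2 when scaled), 7 at 24 h, all higher (4 lower when scaled), 8 at 48 h, 7 higher and 1 lower (23 lower when scaled), and 12 at 72 h, 11 lower and 1 higher (31 lower when scaled). The median of all 38 members, with the untested Cenpf, then differed by 0.18 between the lines (0.17 over the 37 tested), and its 72 h change was -0.050 in WT and -0.55 in Suz12-KO cells. Members called lower when scaled that turned above 0 as deposited were Kif20a (0.049) at 24 h, Aurka (0.14), Birc5 (0.17), Bub1b (0.11), Ccna2 (0.10), Cdc20 (0.079), Cdca8 (0.24), Kif20a (0.18), Smc4 (0.058) and Tpx2 (0.0055) at 48 h, and Aurka (0.024), Cdca8 (0.018), Cenpa (0.078) and Kif20a (0.024) at 72 h, and none of these passed. By construction the deposited scale adds the shift of the median gene. With factors from genes at 1 RPKM in every column, together with a test of the 8983 genes that averaged 1 RPKM, 14 members were called at 48 h, and with housekeeping factors, added after the data were seen, 12. Of all genes, 1632 of 8983 and 1625 of 10860 were then called lower at 48 h, against 2586 of 10860 in the main fit. Those called higher numbered 2520 and 3257, against 2551. With the 1 RPKM and the housekeeping factors the median change at 72 h was -0.48 and -0.35 for WT, and -0.79 and -0.75 for Suz12-KO, where a pseudocount of 1 gave -0.80. Without a filter 0 members were called between the lines, and without the 0, 24, 48 or 72 h columns 1, 0, 0 and 1, with 3 columns per line or fewer. Without the 48 h columns 2 were called at 24 h. The cause was not tested. The calls from 24 h to 72 h numbered 15 to 22 and those of the slope 0 under every setting run. With 3 residual degrees of freedom and single columns, a member's spread between cultures stays unknown. Counting error, relative to level, was widest for Pttg1 in WT cells at 0 h (0.561 RPKM from 29 reads, interval 0.376 to 0.806).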
